A study of Mus musculus with 2 samples.

Results

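EGF receptor ligands and receptors were examined in EMT6 tumors by single-cell RNA sequencing. The members are the 5 ligand genes Areg, Ereg, Hbegf, Tgfa and Btc and the 3 receptor genes Egfr, Erbb2 and Erbb3. They were chosen by gene symbol, and all 8 were found, each in 1 row of the 55450 genes in the count matrices. There were 2 groups of BALB/c mice bearing EMT6 tumors, a mouse mammary carcinoma line, and each group was 1 library made from tumors of 3 mice pooled before sequencing. The first group received Olaparib, a PARP inhibitor, at 50 mg/kg daily together with LLY-283, a PRMT5 inhibitor, at 50 mg/kg for 3 days on and 4 days off. The Combo group received the same Olaparib + LLY-283 plus anti-PD-1 antibody, 200 µg every 3 days. Each mouse was injected with 200000 cells, and no untreated library was analysed here. The study's methods describe its BALB/c mice as female and 5 to 6 weeks old when bought, without giving an age at sequencing. With 1 library per group, the treatment, the pooled mice and the library cannot be told apart, so no p-value is given. Values are followed by 95% intervals in brackets that cover counting error only, exact Poisson for levels, exact conditional binomial for ratios and Wilson for shares of cells.

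The ligands of this family are made as membrane-bound precursors, and metalloproteases such as Adam17 and Adam10 cut them loose. A released ligand joins receptor molecules in pairs. Egfr binds Areg, Tgfa, Hbegf, Btc and Ereg, Erbb2 has no known ligand and serves as a partner, and Erbb3 binds neuregulins and signals mainly through its partner. Signaling through the Ras and ERK pathway turns on feedback genes such as the sprouty and dual-specificity phosphatase genes. In mammary epithelium, amphiregulin, the product of Areg, is known as the ligand needed for duct growth.

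Areg, Ereg and Btc are neighbors on chromosome 5. In mm10, Areg spans chr5:91139599-91148432 on the plus strand, Ereg chr5:91074622-91093646 on the plus strand and Btc chr5:91357261-91402994 on the minus strand. The bases just before the start of Areg are shown beside those of its neighbor Btc and of the receptor gene Egfr (chr11:16752203-16918158, plus strand). RefSeq promoter windows (GRCm38.p6, the mm10 assembly) matched 5 of the 8 members. There was no entry for Ereg, Hbegf or Erbb3. Each line gives the 120 bases before the start of the gene, 5′ to 3′, and capitals mark a match to TATAAA (the TATA box), TGACGTCA (the cAMP response element) or TGANTCA (an AP-1 site), searched on both strands. The last 2 motifs read the same on both strands, and matches of different motifs did not overlap.
Areg (chr5:91139479-91139598, plus strand): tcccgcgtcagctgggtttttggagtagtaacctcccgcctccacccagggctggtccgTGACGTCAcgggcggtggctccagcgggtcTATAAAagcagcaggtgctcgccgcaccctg
Btc (chr5:91402995-91403114, minus strand): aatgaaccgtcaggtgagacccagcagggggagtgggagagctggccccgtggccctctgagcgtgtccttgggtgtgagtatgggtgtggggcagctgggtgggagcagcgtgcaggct
Egfr (chr11:16752083-16752202, plus strand): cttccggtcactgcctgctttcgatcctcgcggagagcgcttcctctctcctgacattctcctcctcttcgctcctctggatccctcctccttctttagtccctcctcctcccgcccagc
The Areg window held TGACGTCA beginning 61 bases and TATAAA beginning 31 bases before the start. In the 250 bases before the start, TATAAA was found in 13.0% and TGACGTCA in 1.62% of 27025 promoters, and TGANTCA in 6.87%. None of these letters were found in the 250-base windows of Btc, Tgfa, Egfr or Erbb2. The window of Epgn, a further neighbor of Areg and no member, held TATAAA beginning 86 bases before its RefSeq start. That window (chr5:91027397-91027516) reaches into the GENCODE gene, which begins at 91027464, so the distance depends on the start used. Epgn had 9 UMIs in the tumor-like cells of each library. These are matches of letters and not measured binding sites. Any relation of these letters to the levels below was not tested, and Hbegf and Ereg had no window to compare.

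Cells were sorted into classes by UMIs of marker genes, where a UMI counts 1 captured transcript. The Olaparib + LLY-283 library held 8408 tumor-like, 203 fibroblast-like, 809 macrophage-like and 781 neutrophil-like cells among 13974 kept, and the Combo library 2645, 61, 479 and 1257 among 5672. The libraries stood apart in depth: tumor-like cells had a median of 9954 UMIs under Olaparib + LLY-283 and 47981 under Combo. Levels are therefore given as CPM, the UMIs of a gene scaled to 1000000 UMIs of the class, and shares of cells at the depth of 1000 UMIs, to which every cell was thinned. As the 3′ method counts a transcript once whatever its length, CPM were compared between genes without a length correction. The libraries shared 39 cell barcodes, and the values for tumor-like cells without those cells stand with the other alternatives. Tumor-like cells, which were sorted by the 5 markers on the keratin list, held UMIs of all 5, 1008 CPM together under Olaparib + LLY-283 and 893 CPM under Combo. Keratin UMIs were also found in the other classes, at 193 and 103 CPM in macrophage-like cells, 485 and 231 CPM in neutrophil-like cells and 305 and 169 CPM in fibroblast-like cells. Levels of Areg and Hbegf in those classes are therefore set against the keratin UMIs of the same cells, and the part of free RNA and doublets in them was not tested.

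**Figure D1:**
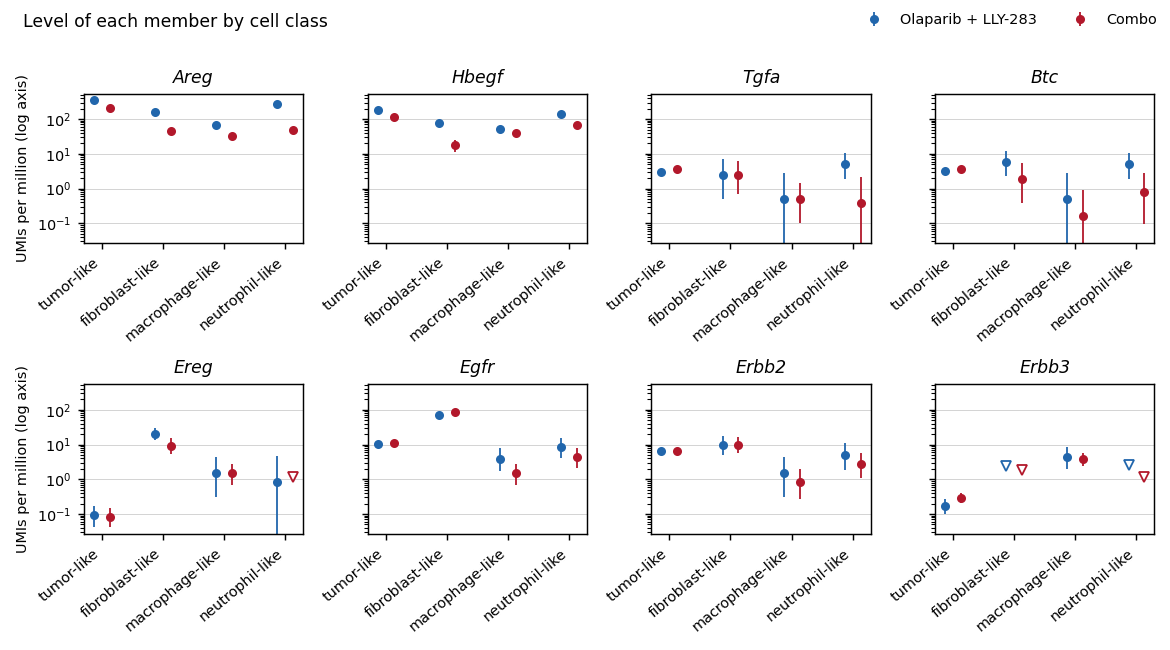
Level of each member in CPM (log axis) in 4 cell classes, with the Olaparib + LLY-283 library in blue and the Combo library in red; bars are 95% counting intervals, and an open triangle marks the limit of 3 UMIs where no UMI was found. Of these 4 classes, Areg and Hbegf were highest in tumor-like cells, Egfr and Ereg in fibroblast-like cells and Erbb3 in macrophage-like cells.

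Areg was the most abundant member in tumor-like cells of both libraries, and it was lower under Combo. It stood at 344 CPM [340.3, 348] (33852 UMIs) under Olaparib + LLY-283 and 208 CPM [206, 211] (27718 UMIs) under Combo. The log2 ratio, Combo over Olaparib + LLY-283, was -0.73 [-0.75, -0.70]. At 1000 UMIs per cell, 24.9% of tumor-like cells [23.9, 25.8] held an Areg UMI in the first library and 15.2% [13.9, 16.7] in the second. In macrophage-like cells, the class of these 4 with the lowest keratin CPM, the share with an Areg UMI was 5.68% [4.20, 7.64] and 2.84% [1.68, 4.77] at the same depth, which left out 100 and 8 cells of fewer UMIs. Without thinning, 73.6% and 80.2% of tumor-like cells held an Areg UMI, in cells of unequal depth (medians of 9954 and 47981 UMIs), and 11.0% and 18.6% of macrophage-like cells (medians of 2228 and 11839 UMIs). Hbegf, which encodes a heparin-binding ligand and lies on chromosome 18, was also lower under Combo. Its level was 182 CPM [179.7, 185.0] and 118 CPM [116, 119.6], with a log2 ratio of -0.63 [-0.66, -0.60], and its share of tumor-like cells was 16.2% [15.5, 17.0] and 10.3% [9.22, 11.5]. The lower level under Combo was not particular to tumor-like cells. In fibroblast-, macrophage- and neutrophil-like cells the log2 ratios were -1.89, -1.07 and -2.49 for Areg and -2.19, -0.40 and -1.06 for Hbegf. Keratin CPM of these classes were lower under Combo too, and the part of free RNA was not tested.

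The other ligands were rare in tumor-like cells. Tgfa (chr6:86195223-86275719), which encodes transforming growth factor alpha, stood at 3.03 CPM [2.69, 3.39] under Olaparib + LLY-283 and 3.63 CPM [3.31, 3.96] under Combo, a log2 ratio of 0.26 [0.05, 0.47]. Btc, which encodes betacellulin, stood at 3.26 CPM [2.91, 3.64] and 3.75 CPM [3.42, 4.09], a log2 ratio of 0.20 [-0.01, 0.41] that counting error alone could give. Ereg, which encodes epiregulin, had 9 UMIs in 8408 tumor-like cells and 11 UMIs in 2645, or 0.091 and 0.083 CPM. Within the chromosome 5 group of neighbors, levels in tumor-like cells thus ran from Areg through Btc to Ereg in both libraries, with no overlap of their intervals.

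Among the receptors, Egfr was highest in tumor-like cells, at a level well below that of Areg. Egfr, the receptor of Areg, stood at 10.5 CPM [9.85, 11.1] under Olaparib + LLY-283 and 10.8 CPM [10.2, 11.4] under Combo. The log2 ratio was 0.04 [-0.08, 0.16], so an Egfr change as large as that of Areg lay outside the counting interval. Erbb2 (chr11:98412470-98437716) stood at 6.57 CPM [6.08, 7.10] and 6.40 CPM [5.98, 6.85], a log2 ratio of -0.04 [-0.19, 0.11]. Erbb2 overlaps Mien1 on the opposite strand, as Ereg does Gm19610, Tgfa Gm43917 and Egfr Egfros. How reads of such pairs were told apart is not given in the sources used here. Erbb3 (chr10:128567523-128589652) had 17 and 38 UMIs in tumor-like cells, or 0.17 and 0.29 CPM. Erbb4, the receptor outside the member list, had 0 UMIs in tumor-like cells of either library, where 3 UMIs would be 0.030 and 0.023 CPM.

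Over the 13534 genes with at least 100 UMIs in tumor-like cells of both libraries together, 2.13% were over 1.5-fold lower under Combo and 5.04% over 1.5-fold higher. Of the 8 members, 6 reached that number of UMIs, and Ereg and Erbb3 did not. Areg and Hbegf were the 2 members past 1.5-fold lower, and 0 were past 1.5-fold higher. Of the genes tested, 1.30% lay below Areg and 1.74% below Hbegf in the log2 ratio. The median log2 ratio was 0.06 over all genes tested and 0.0015 over the 6 members. With 6 members, these counts describe single genes rather than the list.

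The ligand difference was set beside 46 other genes of the pathway, of which 39 had at least 100 UMIs. In the Combo library 5 of the 39 were over 1.5-fold lower and 0 over 1.5-fold higher. Over all genes tested these shares were 2.13% and 5.04%. The median log2 ratio of the 39 genes was -0.0046. Spry2, a feedback inhibitor of receptor tyrosine kinase signaling, stood at 27.4 CPM [26.4, 28.4] and 13.9 CPM [13.3, 14.5], a log2 ratio of -0.98 [-1.07, -0.89]. Its relative Spry4 was at 4.45 and 2.68 CPM (log2 ratio -0.73 [-0.94, -0.53]). Dusp5 and Dusp4, phosphatases that act on ERK, had log2 ratios of -0.68 [-0.72, -0.64] and -0.67 [-0.76, -0.58]. Timp3, an inhibitor of Adam17, was at 0.77 and 0.45 CPM (log2 ratio -0.78 [-1.29, -0.27]), on 76 and 60 UMIs. Fibroblast-like cells held Timp3 at 302 and 273 CPM (log2 ratio -0.14 [-0.35, 0.06]), and the part of free RNA in its few tumor-like UMIs was not tested. Dusp6 lay just inside the threshold, at -0.57 [-0.63, -0.52]. The other genes of the pathway were not compared among cells of similar depth.

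The other named genes of ligand release and receptor inhibition had smaller log2 ratios. Adam17 stood at 34.3 CPM and 39.6 CPM (log2 ratio 0.21 [0.15, 0.27]), and its partners Rhbdf1 and Rhbdf2 had log2 ratios of 0.03 [-0.05, 0.12] and 0.23 [0.11, 0.36]. Errfi1, an intracellular inhibitor of Egfr, stood at 105 and 102 CPM (log2 ratio -0.04 [-0.08, -0.0012]). Lrig1, which promotes loss of ErbB receptors from the membrane, was at 21.5 and 24.8 CPM (log2 ratio 0.21 [0.13, 0.29]). Egf and Nrg1, ligand genes outside the member list, had 31 and 33 and 50 and 62 UMIs in tumor-like cells. The log2 ratios of the 12 ERK output genes ran from -0.68 (Dusp5) to 0.12 (Fosl1), with a median of -0.18.

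**Figure D2:**
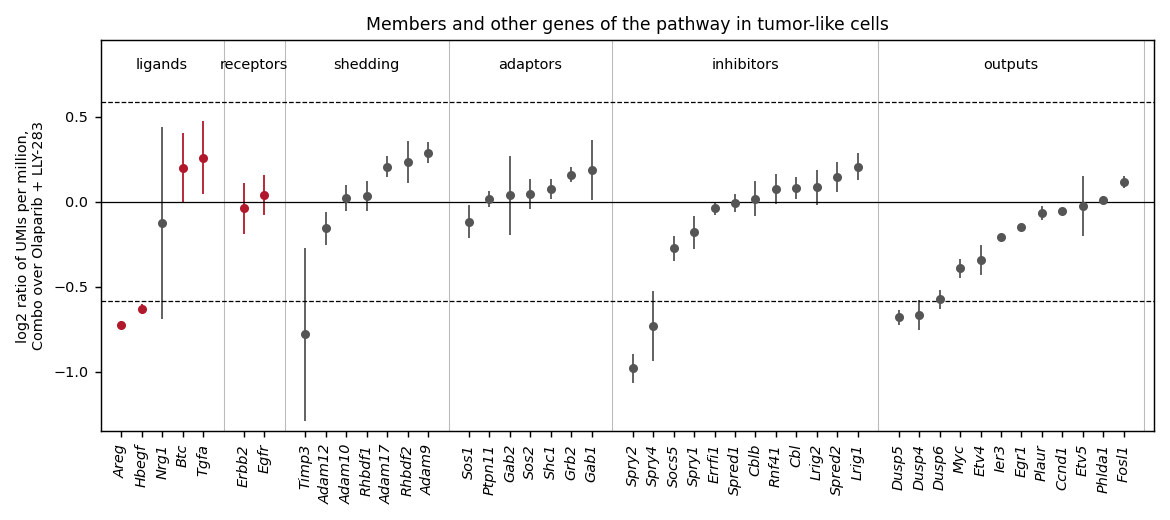
Log2 ratio of CPM, Combo over Olaparib + LLY-283, in tumor-like cells for members (red) and other genes of the pathway (gray) with at least 100 UMIs, grouped by role; bars are 95% counting intervals and dashed lines mark 1.5-fold. Areg, Hbegf, Timp3, Spry2, Spry4, Dusp4 and Dusp5 lie below the lower line, and no gene lies above the upper one.

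Because depth differed between the libraries, Areg was compared among tumor-like cells of similar depth. In cells with 5000 to 10000 UMIs it stood at 388 CPM [380.5, 396] (3323 cells) under Olaparib + LLY-283 and 241 CPM [199.8, 288] (67 cells) under Combo. With 10000 to 20000 UMIs the values were 335 CPM [329, 340.1] (3285 cells) and 175 CPM [158, 194] (147 cells). With 20000 to 50000 UMIs, where both libraries held many cells, they were 307 CPM [300.3, 315] (874 cells) and 237 CPM [233, 242] (1179 cells). Areg was thus lower under Combo at each depth, but the difference was under 1.5-fold at 20000 to 50000 UMIs. It was smallest in cells with 50000 UMIs or more, at 226 CPM [198, 258] in 17 cells and 194 CPM [191, 197] in 1215 cells. Under Olaparib + LLY-283 Areg was lower in each deeper range, from 427 CPM [406, 449] in cells with 2000 to 5000 UMIs. Hbegf was also lower under Combo at each depth and under 1.5-fold apart at 20000 to 50000 UMIs, where it stood at 165 CPM [159.8, 170.2] and 133 CPM [129.6, 136]. At 5000 to 10000 UMIs its intervals, [202, 213] and [133, 207], overlapped. Egfr was higher under Combo at 5000 to 10000 UMIs (27.9 CPM [15.2, 46.7] on 14 UMIs against 10.9 CPM [9.62, 12.3]) and at 20000 to 50000 UMIs (12.0 CPM [11.0, 13.1] against 9.30 CPM [8.10, 10.6]), and its intervals overlapped in the other ranges. The part of depth in these differences was not tested.

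**Figure D3:**
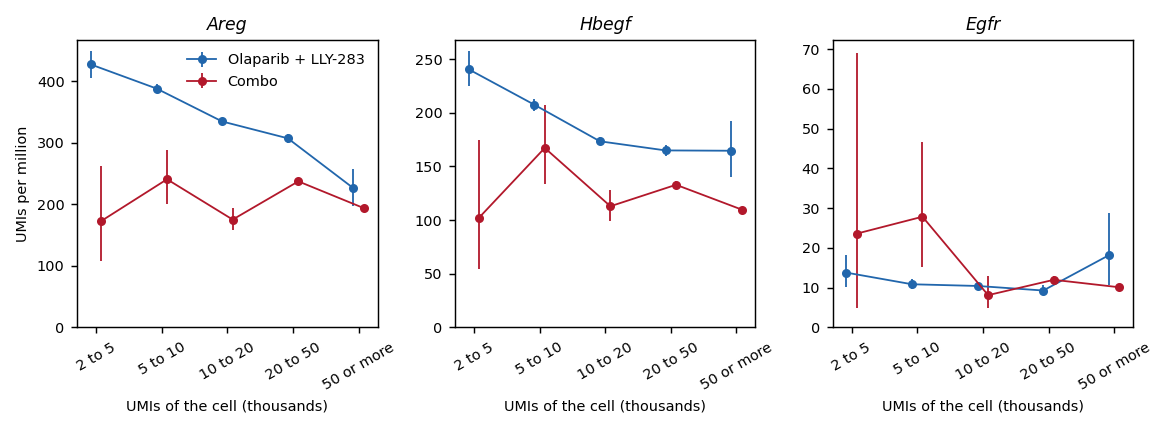
Level of Areg, Hbegf and Egfr in CPM in tumor-like cells grouped by their number of UMIs, with the Olaparib + LLY-283 library in blue and the Combo library in red; bars are 95% counting intervals. Areg and Hbegf are lower under Combo in every depth range, while Egfr shows no such order.

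The UMIs of Areg and Hbegf were unevenly spread over tumor-like cells. After thinning to 5000 UMIs, which left 7499 and 2608 cells, 59.3% [58.2, 60.4] of tumor-like cells under Olaparib + LLY-283 and 42.4% [40.5, 44.3] under Combo held Areg, and 2.49% and 1.07% held 10 or more UMIs of it. The 10% of cells with most Areg UMIs held 45.6% and 56.8% of them, a share that a lower mean by itself raises. For Krt8, a marker of the class, that share was 24.65% and 27.5%, and for Krt18 55.5% and 59.25%. The variance of Areg UMIs per cell over their mean was 4.09 and 4.50, and that of Hbegf 1.962 and 2.308, where counting error alone gives a value near 1. For Krt8 it was 2.07 and 2.59 and for Krt18 2.35 and 1.77, so a ratio like that of Hbegf was not particular to these ligands. The ratio for Egfr was 1.05 and 1.06 and that for Erbb2 1.01 and 0.97, on 365 and 146 cells with an Egfr UMI and 245 and 84 with an Erbb2 UMI. The mean per cell was 0.051 and 0.059 UMIs for Egfr and 0.033 and 0.032 for Erbb2, against 1.79 and 1.06 for Areg. A low mean by itself holds this ratio near 1, so the ratio cannot show whether Egfr and Erbb2 were more evenly spread than Areg and Hbegf. In single cells without thinning, Areg reached 88 UMIs in the first library and 320 in the second.

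**Figure D4:**
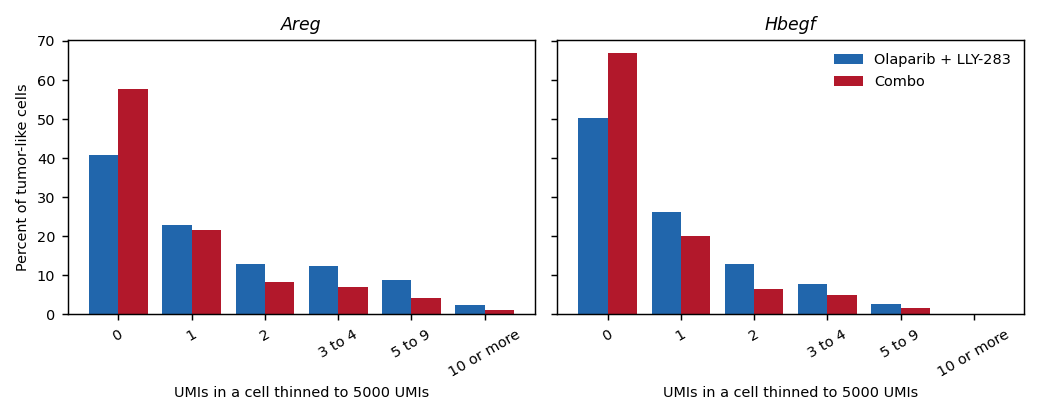
Percent of tumor-like cells by the number of Areg (left) and Hbegf (right) UMIs after thinning each cell to 5000 UMIs, with the Olaparib + LLY-283 library in blue and the Combo library in red. Cells with 0 Areg UMIs made up 40.7% and 57.6%, and cells with 0 Hbegf UMIs 50.3% and 66.8%.

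Hbegf was found more often in cells with an Areg UMI than in cells without. The share with Hbegf was 58.5% [57.0, 59.9] of tumor-like cells with an Areg UMI and 37.0% [35.3, 38.7] of those without under Olaparib + LLY-283, and 44.9% [41.9, 47.8] and 24.6% [22.5, 26.9] under Combo. The Hbegf level was 116 CPM [111, 121.5] in cells with 0 Areg UMIs and 427 CPM [404, 450.4] in cells with 6 or more in the first library, and 72.8 CPM [66.9, 79.2] and 495 CPM [436, 560.4] in the second. Egfr showed no such relation. It was found in 4.86% [4.26, 5.53] of cells with Areg and 4.88% [4.17, 5.70] of cells without under Olaparib + LLY-283, and in 5.43% [4.24, 6.92] and 5.73% [4.66, 7.02] under Combo. An Areg UMI and an Egfr UMI stood together in 2.88% and 2.30% of tumor-like cells at this depth. Tgfa was found in 1.88% of cells with Hbegf and 1.01% of cells without in the first library, with intervals that did not overlap ([1.49, 2.37] and [0.74, 1.38]), and in 2.77% [1.87, 4.09] and 1.67% [1.16, 2.38] in the second. Btc stood at 2.75 CPM [1.98, 3.72] in cells with 0 Areg UMIs and 7.15 CPM [4.48, 10.8] (22 UMIs) in cells with 6 or more in the first library. In the second it stood at 2.40 CPM [1.42, 3.79] and 11.9 CPM [4.36, 25.9] (6 UMIs). The shares of cells with a Btc UMI, with and without Areg, had overlapping intervals in both libraries. So did the Tgfa levels at 0 and at 6 or more Areg UMIs.

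Among 7307 genes found in at least 5% of tumor-like cells thinned to 5000 UMIs in both libraries, the gene most like Areg was Ptgs2, which encodes the prostaglandin synthase COX-2. Likeness was Pearson's r of log counts over cells, ranked by the lower value of the 2 libraries, and the cells of a library share its preparation and free RNA. For Areg, r was 0.40 and 0.39 with Ptgs2, 0.34 and 0.35 with Hbegf, 0.27 and 0.28 with Phlda1, 0.27 and 0.28 with Dusp5, and 0.25 and 0.30 with Rsbn1. For Hbegf, r was 0.35 and 0.40 with Ptgs2, 0.27 and 0.34 with Adm, 0.27 and 0.32 with Dusp5, and 0.25 and 0.27 with Ier3. The lists of Areg and Hbegf thus shared Ptgs2 and Dusp5 among the 5 leading genes, and each gene stood in the list of the other. The level of Errfi1 was 84.2 CPM in cells with 0 Areg UMIs and 183 CPM in cells with 6 or more in the first library, and 92.9 and 269 CPM in the second. Sox9, a transcription factor gene, stood at 46.6 and 156 CPM in the first and at 55.4 and 206 CPM in the second. Krt8 stood at 869 and 932 CPM in the first library and 739 and 966 CPM in the second. Areg in cells with a Sox9 UMI was 534 CPM [518.5, 549] against 304 CPM [298, 311] in cells without under Olaparib + LLY-283, and 347 CPM [327, 369] against 169 CPM [161, 178] under Combo.

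**Figure D5:**
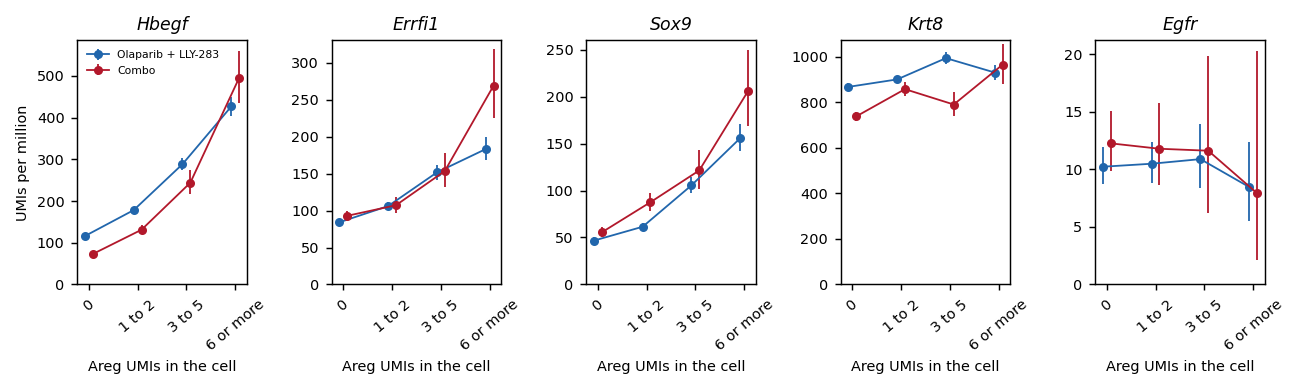
Level of Hbegf, Errfi1, Sox9, Krt8 and Egfr in CPM in tumor-like cells thinned to 5000 UMIs, grouped by their Areg UMIs, with the Olaparib + LLY-283 library in blue and the Combo library in red; bars are 95% counting intervals. Hbegf, Errfi1 and Sox9 are higher in cells with more Areg UMIs in both libraries, and Egfr is not.

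Of tumor-, fibroblast-, macrophage- and neutrophil-like cells, Egfr had its highest level in fibroblast-like cells. These cells were sorted by Col5a2, Fgf7 and Lum, and all 10 fibroblast markers had UMIs in them and also in tumor-like cells. Col3a1, which was not used for sorting, stood at 16550 and 17150 CPM against 420.1 and 424 CPM in tumor-like cells. Egfr was at 69.7 CPM [55.7, 86.2] in fibroblast-like cells under Olaparib + LLY-283 (85 UMIs) and 85.8 CPM [72.1, 101] in those of the Combo library (138 UMIs), which is 6.65 and 7.96 times the tumor-like level. The share of fibroblast-like cells with an Egfr UMI was 7.95% [4.95, 12.5] and 9.42% [4.32, 19.3] at 1000 UMIs, against 1.09% [0.88, 1.33] and 1.16% [0.82, 1.65] of tumor-like cells and 0.48% [0.17, 1.32] and 0.10% [0.010, 1.00] of macrophage-like cells. Without thinning it was 32.0% and 78.7% of fibroblast-like cells, whose median depth was 4400 and 23421 UMIs. Fibroblast-like levels did not differ between the libraries beyond counting error (log2 ratio 0.30 [-0.10, 0.71]). Of the genes with at least 100 UMIs over fibroblast-like and tumor-like cells, 11.9% under Olaparib + LLY-283 and 14.7% under Combo were over 2-fold higher in fibroblast-like cells. Of the 6 members tested there, Egfr was the 1 past that fold in each library, and Ereg and Erbb3 had too few UMIs to be tested. Erbb2 stood at 9.84 CPM [5.08, 17.2] and 9.95 CPM [5.69, 16.2] in fibroblast-like cells, on 12 and 16 UMIs, with intervals that include the tumor-like value in both libraries. Erbb3 had 0 UMIs there, where 3 UMIs would be 2.46 and 1.87 CPM.

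Of the same 4 classes, Ereg was also highest in fibroblast-like cells. It stood at 20.5 CPM [13.3, 30.3] (25 UMIs in 12 of 203 cells) under Olaparib + LLY-283 and 9.33 CPM [5.22, 15.4] (15 UMIs in 6 of 61 cells) under Combo. Between the libraries, the fibroblast-like level was lower under Combo, at a log2 ratio of -1.135 [-2.16, -0.16]. The log2 ratio over tumor-like cells was 7.81 [6.66, 9.09] and 6.82 [5.60, 8.09]. Few cells carried these UMIs, at most 6 and 4 UMIs in 1 cell, so the level rests on few cells. Of the 59 and 41 Ereg UMIs in all kept cells, 42.4% and 36.6% were in fibroblast-like cells. A further 15 UMIs of the Olaparib + LLY-283 library were in 3 cells with markers of more than 1 class, 12 of them in 1 cell. Leukocytes of no named class stood at 17.8 CPM [6.52, 38.7] (6 UMIs) under Olaparib + LLY-283 and 2.85 CPM [0.92, 6.65] (5 UMIs) under Combo, with intervals that overlap those of fibroblast-like cells. In macrophage-like cells Ereg had 3 and 9 UMIs.

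Of these 4 classes, Erbb3 was highest in macrophage-like cells. It stood at 4.45 CPM [2.03, 8.44] (9 UMIs in 9 of 809 cells) and 3.80 CPM [2.41, 5.70] (23 UMIs in 21 of 479 cells), against 0.17 CPM [0.10, 0.28] and 0.29 CPM [0.20, 0.39] in tumor-like cells. The log2 ratio over tumor-like cells was 4.69 [3.34, 5.93] and 3.74 [2.92, 4.52]. It had 0 UMIs in neutrophil-like cells, where 3 UMIs would be 2.50 and 1.18 CPM. In 25 dendritic-like cells under Combo it had 4 UMIs, or 15.0 CPM [4.09, 38.4]. Leukocytes of no named class stood at 2.96 CPM [0.075, 16.5] (1 UMI) and 4.56 CPM [1.97, 8.98] (8 UMIs), with intervals that overlap those of macrophage-like cells. Of the 33 and 76 Erbb3 UMIs in all kept cells, 51.5% and 50.0% were in the more numerous tumor-like cells. The macrophage-like class was sorted by 10 macrophage markers, so their presence there is no separate evidence of its identity. Tumor-like cells also held UMIs of all 10, at 50.1 and 63.4 CPM together against 9470 and 10740 CPM in macrophage-like cells. Of 4 mast cell and basophil markers, macrophage-like cells held 0 and 1.

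The remaining levels in myeloid cells were read against keratin UMIs. In all myeloid-like cells (macrophage-, neutrophil-, dendritic- and osteoclast-like, 1675 and 1788 cells), Areg stood at 154 CPM under Olaparib + LLY-283 and 35.3 CPM under Combo. Tumor-like cells were higher by 1.16 [1.04, 1.28] and 2.56 [2.40, 2.72] on the log2 scale. Of the genes tested in each library, 8.8% and 24.8% were over 2-fold higher in tumor-like than in myeloid-like cells, and 12.4% and 18.0% over 2-fold higher in myeloid-like cells. Areg, Hbegf and Erbb2 were past 2-fold higher in tumor-like cells under Olaparib + LLY-283 and all 6 members tested under Combo, while 0 were past 2-fold higher in myeloid-like cells of either. That 0 covers the tested members only: Ereg and Erbb3, which had fewer than 100 UMIs, were higher in myeloid-like cells. Their log2 ratios, myeloid-like over tumor-like, were 3.625 [1.47, 5.47] and 3.545 [2.10, 4.95] for Ereg, on 4 and 9 myeloid-like UMIs. For Erbb3 they were 4.03 [2.74, 5.24] and 3.39 [2.64, 4.14], on 10 and 28. The minimum of 100 UMIs was taken over both classes together. Tumor-like cells held 98426314 and 133220279 UMIs in all, myeloid-like cells 3544821 and 9337152. Members thus passed the minimum largely through tumor-like cells, and the counts past 2-fold partly follow from it. With putative doublets kept, the count past 2-fold higher in tumor-like cells was 0 under Olaparib + LLY-283 and stayed at 6 under Combo.

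Keratin UMIs also entered the sorting of cells. Tumor-like cells needed at least 3 of them. Cells of another class with at least 10, at or above the median tumor-like keratin rate, were set apart as mixed. The sorting by itself thus lowers keratin UMIs in the other classes, and its part in the ratios below was not tested. Per 100 keratin UMIs, Areg had 34.1 UMIs in tumor-like cells under Olaparib + LLY-283 and 34.6 in macrophage-like cells, a log2 ratio of 0.02 [-0.23, 0.26], which the counting interval does not separate. Neutrophil-like cells of that library had 55.1 and fibroblast-like cells 53.8, above the tumor-like ratio (log2 intervals [0.53, 0.85] and [0.45, 0.86]). Of the 200 Areg UMIs of these fibroblast-like cells, 33 were in 1 cell. With cells weighted equally, the log2 ratio of the neutrophil-like to the tumor-like Areg level in that library was -1.34, against -0.37 with UMIs summed. In the Combo library the Areg ratio per 100 keratin UMIs was 23.3 in tumor-like, 30.7 in macrophage-like, 20.6 in neutrophil-like and 26.2 in fibroblast-like cells, and the interval excluded the tumor-like ratio for macrophage-like cells alone of these 3 classes ([0.18, 0.60]). For Hbegf, macrophage-like and neutrophil-like cells stood above the tumor-like ratio in both libraries, and fibroblast-like cells in 1 of them. Under Combo it had 13.2 UMIs per 100 keratin UMIs in tumor-like cells, 37.4 in macrophage-like cells and 29.1 in neutrophil-like cells, log2 ratios to the tumor-like value of 1.503 [1.31, 1.69] and 1.14 [0.91, 1.36]. Under Olaparib + LLY-283 the Hbegf ratios were 18.1, 26.4 and 28.8, with log2 intervals of [0.25, 0.83] for macrophage-like and [0.44, 0.89] for neutrophil-like cells. Fibroblast-like cells had 26.1 Hbegf UMIs per 100 keratin UMIs there (log2 interval [0.22, 0.82]) and 10.3 under Combo ([-0.94, 0.18]). By CPM, Hbegf was highest in tumor-like cells: macrophage-like cells stood at 50.9 and 38.7 CPM and neutrophil-like cells at 139.7 and 67.1 CPM. Endothelial-like cells (38 and 19 cells) stood at 135.8 and 91.9 CPM, with log2 intervals against tumor-like cells that held 0 ([-0.90, 0.01] and [-1.03, 0.24]). Per keratin UMI, endothelial-like ([0.03, 0.94] and [2.25, 3.52]) and osteoclast-like cells ([0.29, 1.21] and [1.58, 2.85]) also stood above tumor-like cells. Under Combo they held 22 and 35 keratin UMIs. Tgfa and Btc had at most 6 UMIs in macrophage-like or neutrophil-like cells of a library. Cells without a class, 3211 and 736 of them, held Areg at 364 and 217 CPM.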

How the data were processed

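Single-cell suspensions of pooled tumors were sequenced with 10× Genomics 3′ chemistry. The authors deposited 1 matrix of raw UMI counts per library, not normalized, against mm10. The file headers name Cell Ranger 6.1.2, the study's methods a later version, and the submitters' processing notes list bcl2fastq 5.0.1, Cell Ranger and Seurat 4.1.0. All 55450 gene identifiers are in GENCODE M21, which gave the positions.

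The libraries held 16115 cells (147214934 UMIs) and 7542 cells (162522700 UMIs). Cells with 20% or more mitochondrial UMIs (86 and 1586) or fewer than 200 genes (5 and 4) were left out. Scrublet (scanpy 1.11.5) at its own threshold called 0 doublets in either library, so the highest-scoring 12.8% and 4.76% of cells (0.8% per 1000 cells, 2055 and 284 cells) were removed by rank. A class needed 3 marker UMIs at 5 times the rate of its library, with Col5a2, Fgf7 and Lum alone used for fibroblast-like cells because the tumor-like cells held the other collagens. Tumor-like cells met this rule for no such class and not for the leukocyte markers. They had at least 3 UMIs of Krt8, Krt18, Epcam, Krt7 and Krt19 together and at least 2000 UMIs. Cells with markers of several classes were called mixed. So were cells of another class with at least 10 keratin UMIs at or above the median tumor-like keratin rate. The mixed cells (163 and 58) and cells without a class (3211 and 736) entered no comparison.

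The members, the pathway list and the markers were chosen with earlier results of these data known, and the class rule and the doublet ranks were set after the data were seen. Named genes were all members, listed pathway genes past 1.5-fold with at least 100 UMIs, 9 pathway genes whatever their values, and the 5 genes most like a member. Dusp6, Fosl1, Sox9, Krt8 and Krt18 were named after their values were seen. UMIs were summed per class, and 0.5 UMIs were added for counts past a fold. No test was run, since each group is 1 library. The ratios and their intervals were tried on simulated Poisson sums of tumor-like cells, and the thinned shares against drawn thinnings. The sorting into classes, the doublet ranks and the keratin ratios were not simulated. Poisson sums lack the uneven spread over cells seen for Areg, so they cover counting error only. Alternatives changed the cell filter, doublets, marker UMIs, weighting, depth, scaling and thinning. Scripts used pandas 2.3.3, scipy 1.17.1, numpy 2.4.6 and matplotlib 3.10.9 under Python 3.11.15.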

Additional observations from a re-analysis of the deposited data

Results flagged for a closer look

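Tgfa differed in opposite directions between the libraries in 2 classes. Its log2 ratio, Combo over Olaparib + LLY-283, was 0.26 [0.05, 0.47] in tumor-like cells and -3.67 [-9.19, -0.63] in neutrophil-like cells, on 6 and 1 UMIs in the latter. In neutrophil-like cells Btc (-2.67 [-6.01, -0.19], on 6 and 2 UMIs), Areg (-2.49) and Hbegf (-1.06 [-1.37, -0.74]) were also lower under Combo. The intervals of Ereg, Egfr and Erbb2 held 0 there. Keratin UMIs stood at 485 and 231 CPM in the same cells. The lower level in neutrophil-like cells was thus not particular to Tgfa, and the difference between the classes was not tested.

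Cells with 20% or more mitochondrial UMIs, which entered no comparison, also held Areg and Hbegf. Areg stood at 99.98 CPM [36.7, 218] on 6 UMIs in 86 such cells under Olaparib + LLY-283 and at 68.2 CPM [55.2, 83.3] on 95 UMIs in 1586 such cells under Combo. Hbegf stood at 45.2 CPM [34.7, 57.8] on 63 UMIs in those Combo cells. Each is below the tumor-like level of its library.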

How the results depend on the processing

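Areg stayed lower in tumor-like cells of the Combo library under all 9 alternatives run, with log2 ratios from -0.92 to -0.70, and so did Hbegf, from -0.68 to -0.59. The depth alternative took cells with 5000 to 20000 UMIs only, so these ranges do not cover deeper cells. At 20000 to 50000 UMIs the differences were smaller and under 1.5-fold, at 307 and 237 CPM for Areg and 165 and 133 CPM for Hbegf. The Areg ratio left its counting interval with the cells removed by doublet rank kept (-0.70). It also did so with cells weighted equally (-0.78) and among cells with 5000 to 20000 UMIs (-0.92). Egfr ranged from 0.03 to 0.15, within its interval. Erbb2 ranged from -0.07 to 0.34 and Tgfa from 0.20 to 0.78, with the upper ends among cells with 5000 to 20000 UMIs, where Tgfa was the 1 member past 1.5-fold higher in the Combo library. With genes of at least 20 UMIs admitted, Erbb3 was the 1 member past 1.5-fold higher. The Areg difference between tumor-like and myeloid-like cells (log2) was 0.60 and 1.86 with the cells removed by doublet rank kept. It was 1.73 and 2.25 with cells weighted equally, and 1.29 in the Olaparib + LLY-283 library with double the marker UMIs. The 3 members past 2-fold in that library became 0 with the cells removed by doublet rank kept. Without thinning, the share of tumor-like cells with a UMI was higher in the Combo library by 6.67 percentage points for Areg and 10.9 for Hbegf, the reverse of the thinned shares, since Combo cells held more UMIs. Erbb3 ranged from 0.71 to 1.53 and Ereg from -0.24 to 2.89. Apart from the unthinned shares, the cause of these shifts was not tested. Apart from the Areg and Egfr differences and the counts of members, 184 alternative values were computed, those of Hbegf, Ereg, Tgfa, Btc, Erbb2 and Erbb3 included. Of these, 156 stayed within the interval of the reported value, 26 moved and 2 are the reversals above. Dropping the keratin requirement and dropping cells with a shared barcode were settings chosen after seeing the data. Leaving out a replicate was not possible with 1 library per group. No paired analysis was possible because each group is 1 library. Counting error limits Ereg and Erbb3 most, with 9 to 38 UMIs in tumor-like cells.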

Other observations

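Nrg1, which encodes neuregulin-1, the ligand of Erbb3 and Erbb4, is no member and stood at a higher CPM in fibroblast-like and macrophage-like than in tumor-like cells of both libraries. Tumor-like cells held 50 of the 89 Nrg1 UMIs in kept cells under Olaparib + LLY-283 and 62 of the 204 under Combo. It stood at 0.51 and 0.47 CPM in tumor-like cells under Olaparib + LLY-283 and under Combo, at 10.7 CPM [5.68, 18.2] and 14.3 CPM [9.07, 21.5] in fibroblast-like cells and at 7.41 CPM [4.15, 12.2] and 6.61 CPM [4.72, 8.999] in macrophage-like cells. In neutrophil-like cells it had 1 UMI in the first library and 27 UMIs (10.6 CPM [6.98, 15.4]) in the second. In 25 dendritic-like cells of the Combo library it had 25 UMIs in 10 cells, or 93.8 CPM [60.7, 139], against 1 UMI in 15 such cells of the Olaparib + LLY-283 library. Erbb4 had 0 UMIs in tumor-, fibroblast-, macrophage-, neutrophil- and dendritic-like cells of both libraries.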
